A study of Saccharomyces cerevisiae with 5 samples.

Results

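The 26S proteasome genes of budding yeast were examined after copper exposure. The 38 genes were taken by gene symbol from the annotation of the array probes, out of 5379 named genes on the array, and comprised the 20S core (14 genes), the 19S base (10) and lid (9), the transcription factor gene RPN4, and 4 genes of assembly and accessory factors. All 38 had a probe, and 37 were measured on all 3 arrays and tested. The remaining gene, RPN12, had no value on replicate 1. No member had more than 1 probe.

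Cells were of the strain Saccharomyces cerevisiae S288C growing at 25 °C in YPD, a rich glucose medium. Treated cultures received copper(II) sulfate at 10 mM when they had reached an optical density of 1 and were harvested 2 h later, and control cultures grew for the same 2 h without it. PolyA RNA of the treated cells was labelled with Cy5 and that of the control cells with Cy3, and both were hybridised together on each of 3 two-colour arrays, described as independent biological samples. The dyes were never exchanged, so an effect of the dye on a gene cannot be told apart from an effect of copper. Whether each array had a control culture of its own is not stated, and the p-values reflect array-to-array spread alone.

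Values are log2 ratios, positive where a transcript was more abundant with copper. That direction is likely rather than stated. It rests on the treated RNA being listed as the first channel and on copper genes of known behaviour: the metallothionein genes CUP1-1 and CUP1-2 had means of 4.33 ± 1.53 and 4.25 ± 2.12 (SD, n = 3), CRS5, another metallothionein gene, had 3.00 ± 1.05, and the copper uptake genes CTR1 and FRE1 had -3.13 ± 0.95 and -3.73 ± 0.36. CUP1-1 and CUP1-2 are near-identical copies, so their separate values are uncertain. All 5 genes were closest to 0 on replicate 3. Each array holds 6912 spots, of which 76.2% to 86.1% had a value on the scans used alone or as the high-power scan, and the number of arrays limits the precision. In a bulk ratio, fewer cells making a transcript and less transcript per cell cannot be told apart.

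The 26S proteasome degrades proteins tagged with ubiquitin. Its core is a barrel of stacked rings, in which outer alpha rings gate the entrance and inner beta rings carry the protease sites. The 19S particle caps the barrel: its base unfolds substrates with a ring of ATPases and binds ubiquitin, and its lid removes the ubiquitin chain. In yeast the subunit genes are activated together by Rpn4, a short-lived transcription factor that the proteasome itself destroys, so that a loss of proteasome activity normally raises the whole set.

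Proteasome genes changed in both directions after copper. Falls made up 18.9% of the tested members, against 12.0% of all genes, and rises 5.41%, against 11.5%. Together they were 24.3% of the tested members, close to the 23.5% of all genes. The lid held 4 of the 7 falls: RPN8, RPN11, RPN5 and RPN9 fell to between 0.374 and 0.635 of the untreated level. In the core, only the alpha subunit genes SCL1 and PRE9 fell, and no beta subunit gene passed the test. The ATPase gene RPT6 fell, the ubiquitin receptor gene RPN10 rose to 1.40 times and the core maturation factor gene UMP1 to 1.71 times the untreated level. RPN4 did not pass the test. Of the called members, only RPN8 and RPN5 passed in every alternative analysis in which they could be tested.

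In limma's test of the mean ratio against 0, with Benjamini-Hochberg adjustment over 4824 genes and a threshold of 0.05, 7 of the 37 tested members (18.9%) were lower with copper, against 12.0% of all genes tested. Another 2 members (5.41%) were higher, against 11.5% of all genes. The 9 calls in either direction made up 24.3% of the members, close to the 23.5% of all genes. The median of the members was -0.20, with quartiles of -0.42 and 0.02, beside -0.04 for all genes with quartiles of -0.34 and 0.26. These counts depended on the arrays used: 4 members were lower and 1 higher without replicate 1, 3 and 1 without replicate 2, and 7 and 0 without replicate 3. The counts of all 4824 genes moved as well, with 276 lower and 302 higher, 218 and 276, and 638 and 573 in the same order.

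**Figure D1:**
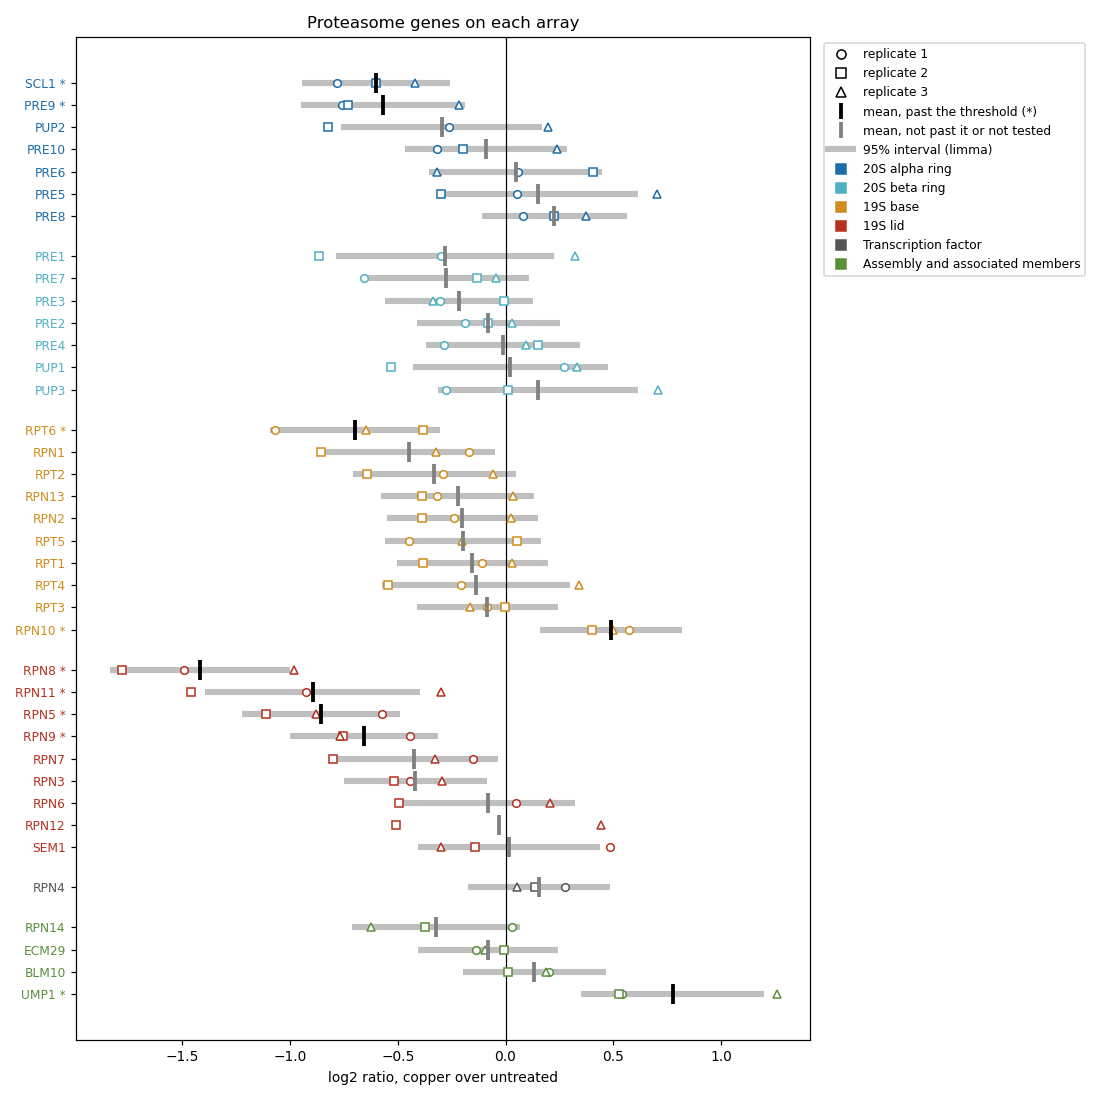
Log2 ratio of copper over untreated for each of the 38 proteasome genes, by subcomplex. Open symbols are the 3 arrays, vertical bars the means (black with an asterisk where the adjusted limma p is under 0.05) and grey bands limma's 95% intervals; RPN12 has 2 arrays and no interval. The 4 called lid genes lie wholly below 0, and RPN10 and UMP1 wholly above it.

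The lid held the lowest values. RPN8 (YOR261C) encodes the structural partner of the lid's deubiquitinase, and read -1.49, -1.78 and -0.98 on replicates 1, 2 and 3. All 3 arrays were far below 0, the mean of -1.42 ± 0.40 (SD, n = 3) corresponded to 0.374 of the untreated level, and the adjusted p by limma was 0.00278. It ranked 19th from the lowest of 4824 genes. RPN11 (YFR004W), the metalloprotease that cuts ubiquitin chains from substrates and that pairs with Rpn8, read -0.92, -1.46 and -0.30. The arrays differed widely for RPN11, with replicate 3 closest to 0, and the mean was -0.89 ± 0.58 (adjusted p by limma = 0.0242). Without replicate 2 its mean was -0.61 and it no longer passed (adjusted p = 0.0852).

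RPN5 (YDL147W) and RPN9 (YDR427W) encode scaffold subunits of the lid's horseshoe. RPN5 read -0.57, -1.11 and -0.88, below 0 throughout, with a mean of -0.86 ± 0.27 and an adjusted p by limma of 0.0112. RPN9 read -0.44, -0.76 and -0.77, with a mean of -0.66 ± 0.18 (adjusted p by limma = 0.0201). The values of RPN9 were tighter around their mean than those of RPN5, but without replicate 2 RPN9 had a mean of -0.61 and an adjusted p of 0.0660.

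The other scaffold subunits of the lid spanned a range. RPN3 read -0.44, -0.52 and -0.30, and RPN7 read -0.15, -0.80 and -0.33. Both were below 0 on every array without passing the test (adjusted p by limma = 0.0669 and 0.101). RPN3 passed in 3 of 15 alternative analyses, with an adjusted p from 0.0351 to 0.0426. RPN6, whose product clamps the lid to the core, read 0.05, -0.49 and 0.21, and RPN12 read -0.51 and 0.44 on replicates 2 and 3. For these genes the arrays lay on both sides of 0. The same held for SEM1, a very small subunit that helps the lid assemble, with 0.48, -0.14 and -0.30. In all, 6 of the 8 tested lid genes were below 0 on all 3 arrays, against 32.1% of all genes, and 0 were above 0 on all 3, against 27.3%. Of these 8, 4 (50.0%) passed the test downward, against the 12.0% of all genes, and 0 upward. Without replicate 2, 2 lid genes (RPN5 and RPN8) passed, and only 218 of all 4824 genes passed downward.

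In the base, 1 of 10 genes fell and 1 rose, near the 12.0% and 11.5% of all genes. Its ATPase ring is made of the products of RPT1 to RPT6, which thread unfolded substrates into the core. RPT6 (YGL048C) read -1.07, -0.38 and -0.65. It was below 0 on every array, with a mean of -0.70 ± 0.35, or 0.616 of the untreated level (adjusted p by limma = 0.0252). Without replicate 1, the array with its lowest value, the mean was -0.51 and the adjusted p 0.203. The other 5 ATPase genes had means from -0.33 for RPT2 to -0.08 for RPT3 and did not pass the test. RPT2 read -0.29, -0.64 and -0.06, and RPT3 read -0.08, -0.003 and -0.17. RPT1 read -0.11, -0.38 and 0.03, RPT4 read -0.21, -0.54 and 0.34, and RPT5 read -0.45, 0.05 and -0.20, so that their arrays fell on both sides of 0. All 6 ATPase genes had a mean below 0, with a median of -0.18, as did 2628 of all 4824 genes. Of the 6, 3 (50.0%) were below 0 on all 3 arrays, against 32.1% of all genes.

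The remaining base genes encode the docking scaffolds and ubiquitin receptors. RPN10 (YHR200W), a receptor for ubiquitin chains that also exists free of the proteasome, read 0.57, 0.40 and 0.50. The 3 arrays agreed closely, the mean was 0.49 ± 0.09, and limma gave an adjusted p of 0.0423. Of the 33 structural subunits it was the only one called upward among the 32 tested. Its call was lost without any one of the replicates, with adjusted p of 0.281, 0.0803 and 0.0820 without replicates 1, 2 and 3, while the mean stayed between 0.45 and 0.53. RPN13, the other dedicated receptor, read -0.32, -0.39 and 0.04 and did not pass (adjusted p by limma = 0.316). RPN1, the scaffold on which shuttle proteins and the deubiquitinase Ubp6 dock, read -0.17, -0.86 and -0.32 (mean -0.45, adjusted p by limma = 0.0925). RPN2, the scaffold that holds Rpn13, read -0.24, -0.39 and 0.02 (mean -0.20, adjusted p by limma = 0.361).

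In the alpha ring, 2 of 7 genes fell and 0 rose (all genes 12.0% and 11.5%). SCL1 (YGL011C) read -0.78, -0.60 and -0.42, with a mean of -0.60 ± 0.18 or 0.659 of the untreated level (adjusted p by limma = 0.0264). PRE9 (YGR135W), which encodes the only core subunit that yeast can live without, read -0.76, -0.73 and -0.22, with a mean of -0.57 ± 0.31 (adjusted p by limma = 0.0423). Both genes were below 0 on every array, and both calls held without replicate 3 but not without replicate 1 or 2. On the low-power scan of replicate 3, which was set aside, SCL1 read 0.06. With both scans of that array averaged, its mean was -0.52 and its adjusted p by limma 0.0544. The adjusted p of SCL1 was 0.207 without replicate 1 (mean -0.51) and 0.0691 without replicate 2 (mean -0.60), and that of PRE9 was 0.249 (mean -0.47) and 0.134 (mean -0.49).

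The other alpha genes showed no common direction. PRE8 was above 0 on every array (0.08, 0.22 and 0.38) without passing the test (adjusted p by limma = 0.284). PRE5 read 0.05, -0.30 and 0.70, PUP2 read -0.26, -0.82 and 0.20, PRE10 read -0.32, -0.20 and 0.24, and PRE6 read 0.06, 0.41 and -0.32. The spread between arrays exceeded the mean for each of these 4 genes.

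No beta ring gene passed the test in either direction (all genes 12.0% lower and 11.5% higher), and the 7 means lay between -0.28 and 0.15. With 7 genes, few calls would be counted at these shares. The 3 protease subunits are encoded by PRE2 (the chymotrypsin-like site), PUP1 (trypsin-like) and PRE3 (caspase-like). PRE2 read -0.19, -0.08 and 0.03, with a mean of -0.08 and a 95% interval of 0.753 to 1.19 times the untreated level. PUP1 read 0.27, -0.53 and 0.33 (interval 0.742 to 1.39), and PRE3 read -0.30, -0.01 and -0.34 (interval 0.678 to 1.09). The intervals leave room for moderate changes in either direction at this number of arrays. Among the subunits without a protease site, PRE1 read -0.30, -0.86 and 0.32, PRE4 read -0.28, 0.15 and 0.10, PRE7 read -0.66, -0.13 and -0.05, and PUP3 read -0.27, 0.01 and 0.71. Only PRE3 and PRE7 (28.6%) were below 0 on all arrays, near the 32.1% of all genes. No beta gene was above 0 on all, against 27.3% of all genes.

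Set side by side, the lid had a median of the gene means of -0.54, the base -0.20 and the core -0.09 (alpha ring -0.09, beta ring -0.08). The lid medians were -0.44, -0.78 and -0.31 on replicates 1, 2 and 3, below the base medians of -0.22, -0.38 and -0.02 on each array. The base minus lid difference was 0.22, 0.39 and 0.30 (mean 0.30 ± 0.09, SD over 3 arrays). Core and base did not keep their order: the core medians were -0.28, -0.16 and 0.15, and the core minus base difference was -0.06, 0.22 and 0.16, a mean of 0.11 that is smaller than its SD of 0.15. These differences are descriptions, since subunits of a complex are not replicates. The lid also had the lowest median of the 3 in all 15 alternative analyses, but not all of these could change the order. Robust variances and the minimum fold change leave the means as they are, and centring arrays on their median shifts all genes alike. When values on only 2 arrays were required, which brought in RPN12, the lid median was -0.43. The alpha ring median was 0.02 without replicate 1.

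**Figure D2:**
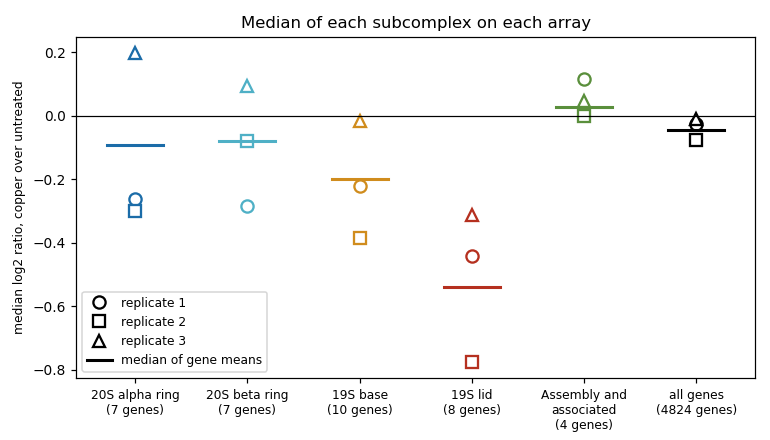
Median log2 ratio of copper over untreated of the tested genes of each subcomplex on each array (open symbols), and the median of the gene means (bars), beside all 4824 genes. The lid is below the base on each of the 3 arrays, whereas both core rings lie on either side of 0.

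**Figure D3:**
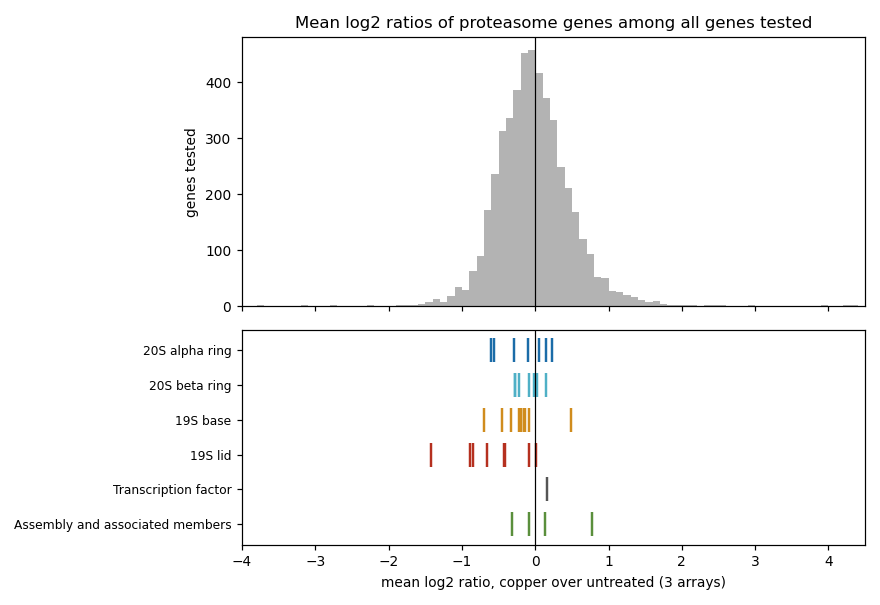
Histogram of the mean log2 ratios of all 4824 tested genes (top) and the means of the 37 tested proteasome genes by subcomplex (bottom, 1 tick per gene). The lid reaches from -1.42 to 0.02, and the beta ring stays within -0.28 and 0.15.

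The arrays themselves differed for the core. Of 14 core genes, 11 (78.6%) had their highest value on replicate 3, as did 37.6% of all genes, and the core median there was above 0 whereas it was below 0 on the other arrays. Replicate 3 also gave the copper genes their smallest ratios. The part of that array in the core values was not tested beyond leaving it out: without replicate 3 the core median was -0.14 and the lid median -0.54. Across the 37 tested members the ratios of 2 arrays correlated with a Pearson r of 0.67 (replicates 1 and 2), 0.61 (1 and 3) and 0.54 (2 and 3), as a description over genes that share their arrays, and over all genes the same pairs gave 0.69, 0.65 and 0.61.

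Proteasome probes were measured on nearly every scan. On the low-power scan of replicate 2, where 41.3% of spots held a value, 34 of the 38 members (89.5%) did. High- and low-power scans of that array differed by a median of 0.11 for these 34 genes, with the largest difference, 0.37, for RPN11. On replicate 3 the scans differed by a median of 0.15 over 36 genes. The largest difference there was 0.54, for ECM29, and on each of these arrays the sign differed between scans for 6 members. The median differences were smaller than the median SD between arrays of 0.30, and the largest ones were not.

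The activator gene RPN4 (YDL020C) read 0.28, 0.14 and 0.05. It was slightly above 0 on every array, with a mean of 0.16 ± 0.11, a 95% interval of 0.885 to 1.40 times the untreated level and an adjusted p by limma of 0.454. Under the 15 alternative analyses the mean of RPN4 stayed between 0.09 and 0.21 and never passed the test.

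Of the 4 genes of assembly and accessory factors, 1 rose and 0 fell, against 11.5% and 12.0% of all genes. UMP1 (YBR173C), a chaperone that is enclosed in the maturing core and becomes its first substrate, read 0.54, 0.53 and 1.26. All arrays were above 0, with replicate 3 more than the others, and the mean was 0.78 ± 0.42 (95% interval 1.28 to 2.30 times the untreated level, adjusted p by limma = 0.0229). Without replicate 3 the mean of UMP1 was 0.53 and the adjusted p 0.0571. UMP1 is also a short gene, of 447 bases, and after correction of the ratios for gene length its mean was 0.61 and its adjusted p 0.0540. RPN14, a chaperone of base assembly, read 0.03, -0.37 and -0.62 (adjusted p by limma = 0.194). BLM10, an alternative cap of the core, read 0.20, 0.01 and 0.19, and ECM29, which braces core and cap, read -0.14, -0.01 and -0.10. Both stayed close to 0 on all arrays.

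Further assembly chaperones and associated proteins gave values in both directions. Of the 10 tested genes, 1 rose and 3 fell (all genes 11.5% and 12.0%), with a median of -0.20. TMA17, a chaperone that pairs ATPase subunits and is known to be induced by stress, read 1.10, 0.76 and 1.14 and rose to 2.00 times the untreated level (mean 1.00 ± 0.21, adjusted p by limma = 0.00500). It passed in all 15 alternative analyses. UBP6, the deubiquitinase bound to Rpn1, read -1.85, -1.15 and -0.25. All 3 arrays of UBP6 were below 0 but far apart, so that a mean of -1.08 ± 0.80 (adjusted p by limma = 0.0257) no longer passed without replicate 1 (mean -0.70, adjusted p = 0.0631) or without replicate 2 (mean -1.05, adjusted p = 0.0684).

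STS1, which helps bring proteasomes to the nucleus, and NAS2, another chaperone of the base, had means of -0.53 ± 0.24 and -0.50 ± 0.21 (adjusted p by limma = 0.0453 and 0.0473). STS1 read -0.61, -0.72 and -0.25, and NAS2 read -0.34, -0.42 and -0.74. Both were negative throughout, but STS1 lost its call without replicate 1 (adjusted p = 0.236) or 2 (0.151), and NAS2 without replicate 1 (0.138), 2 (0.0919) or 3 (0.155).

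Genes for activators of RPN4 transcription and for Rpn4 turnover included 2 falls and 0 rises among 7 tested (all genes 12.0% and 11.5%). Their median was -0.42, beside -0.04 for all genes. MUB1, the partner of the ubiquitin ligase Ubr2 in marking Rpn4 for destruction, read -1.72, -1.10 and -1.29. With a mean of -1.37 ± 0.32, or 0.387 of the untreated level (adjusted p by limma = 0.00235), it lay as low as RPN8. It could be tested in 14 of the 15 alternative analyses and passed in each. UBR2 read -0.53, -0.48 and -0.23 (mean -0.42, adjusted p by limma = 0.0732). YAP1, an oxidative stress regulator and one of the activators of RPN4 transcription, read -0.78, -1.03 and -0.73 (mean -0.85 ± 0.16, adjusted p by limma = 0.00881). The other activator genes PDR1, PDR3 and HSF1 had means of -0.48, 0.02 and 0.16, and none passed the test.

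Upstream of the proteasome, genes that build ubiquitin chains also differed among themselves. None of the 3 tested ubiquitin genes passed, from -0.21 ± 0.27 for the stress polyubiquitin gene UBI4 to 0.13 ± 0.37 for RPL40B, which encodes ubiquitin fused to a ribosomal protein. Of 11 tested genes for activating and conjugating enzymes, 3 rose and 1 fell (all genes 11.5% and 12.0%), with a median of -0.02 although their mean was 0.09. UBC5, a conjugating enzyme for short-lived and abnormal proteins, was above 1 on all 3 arrays and rose to 2.18 times the untreated level (mean 1.12 ± 0.08, adjusted p by limma = 0.00259). Its close copy UBC4 read -0.20, 0.46 and 0.04 (adjusted p by limma = 0.684). Values of near-identical genes such as UBC4 and UBC5, or RPL40B and its copy, are uncertain, since probe sequences were not used here.

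MMS2, a partner subunit for a specialised kind of ubiquitin chain, read 0.83, 1.34 and 0.60 (mean 0.92 ± 0.38, adjusted p by limma = 0.0124). UBC7, which serves the degradation of endoplasmic reticulum proteins, had a mean of 0.47 ± 0.04 (adjusted p by limma = 0.0459). CDC34, the conjugating enzyme of cell-cycle ubiquitin ligases, had a mean of -0.63 ± 0.31 (adjusted p by limma = 0.0306). The UBC7 call was lost without replicates 1, 2 or 3 (adjusted p = 0.281, 0.108 and 0.0792), and that of CDC34 without replicate 1 (0.0965) or 2 (0.116).

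Among 10 tested ubiquitin ligase genes, 1 rose and 2 fell (median -0.20), near the 11.5% and 12.0% of all genes. RSP5, the essential ligase of membrane protein sorting, had a mean of -0.61 ± 0.11, and HUL4, a related ligase gene, had -0.65 ± 0.28 (adjusted p by limma = 0.0227 and 0.0266). MET30, the substrate adaptor that controls the sulfur regulator Met4, had a mean of 0.51 ± 0.16 (adjusted p by limma = 0.0423). These calls were lost in part with fewer arrays: RSP5 without replicate 1 (0.150), HUL4 without replicate 1 (0.0789) or 2 (0.102), and MET30 without replicate 1 (0.322), 2 (0.0749) or 3 (0.0613).

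Of the Cdc48 complex and the shuttle factors, which carry ubiquitinated proteins to the proteasome, 1 of 11 genes fell and 0 rose (median -0.06), against 12.0% and 11.5% of all genes. That gene was CUZ1, a zinc-finger protein that binds Cdc48 and the proteasome, with -1.11, -0.65 and -0.52 (mean -0.76 ± 0.31, adjusted p by limma = 0.0182, and 0.138 without replicate 1).

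Deubiquitinase genes included 4 falls and 0 rises among 18 tested (22.2%, against 12.0% of all genes), with a median of -0.17. UBP13, which has a close copy in UBP9, read -1.18, -1.26 and -0.87 (mean -1.10 ± 0.21, adjusted p by limma = 0.00357), next to UBP6 described above. UBP8, the deubiquitinase of the SAGA chromatin complex, and UBP12 had means of -0.58 ± 0.17 and -0.56 ± 0.27 (adjusted p by limma = 0.0281 and 0.0404). Without replicate 1 their adjusted p were 0.145 and 0.334, and without replicate 2 they were 0.0984 and 0.0778.

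**Figure D4:**
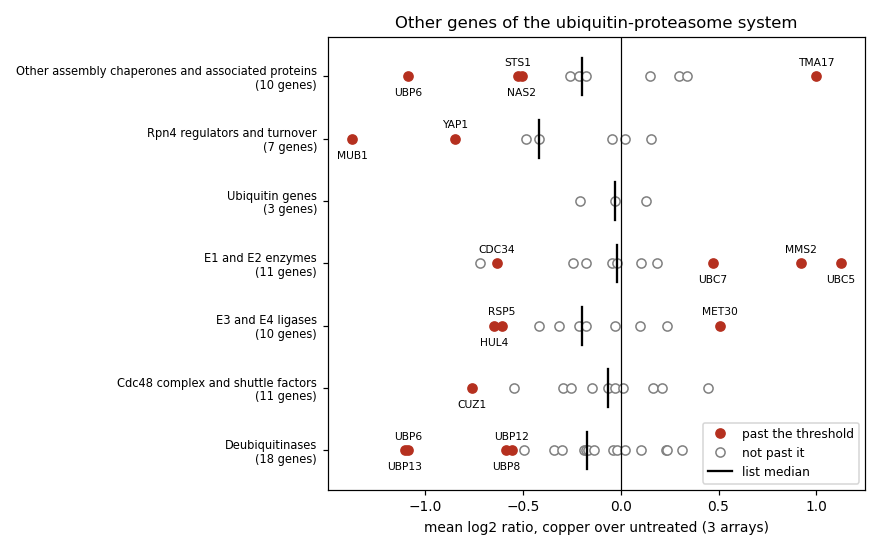
Mean log2 ratio of copper over untreated (3 arrays) of the tested genes of 7 lists of the ubiquitin-proteasome system. Filled points passed an adjusted limma p of 0.05 and are named, and black bars are list medians; TMA17 and UBC5 lie near 1 and MUB1 near -1.4.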

How the data were processed

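The deposited table of the authors holds a log2 ratio per spot for 5 scans of 3 arrays, which per the labels went through LOWESS normalization with spots flagged 0. The log base was read from the values: the lowest, -6.64, is the log2 of 0.01. How background was handled is not stated. Replicate 1 was its single scan, replicate 2 the average of both scans (1 scan where the other was empty), and replicate 3 its high-power scan, because the series description sets its low-power scan aside. Of 6912 probes, 5446 had 1 gene symbol, 0 had several and 1466 had none, and all 5446 gene identifiers were in the yeast gene table (assembly R64). As the array's genome build is not named, no coordinates are given.

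Genes with values on all 3 arrays (4824) were tested against a mean of 0 in limma 3.58.1 (lmFit, eBayes; R 4.3.3), with two-sided p-values adjusted by Benjamini-Hochberg over these genes. The test was tried on simulated data with independent errors and no dye effect. That trial is not used to support any call. Errors after ± are SDs over arrays, and intervals are 95% intervals of limma. Lists are described by counts and medians, without a list test. Members and lists were chosen with earlier results of these data known. Named genes are all members, up to 4 called genes of each other list with the largest change (the extremes where none was called) and the copper genes; UBC4, UBR2, PDR1, PDR3 and HSF1 were added after their values were seen. POC4, RPL40A, UBR1, UFD4, TOM1, SSM4 and RKR1 of the lists were not analysed here. Gene lengths are those of the gene table. The 15 alternatives changed how scans were joined, centred or scaled arrays, corrected ratios for gene length (loess, span 0.4), required only 2 arrays, used robust variances, array weights or a minimum fold change of 1.2, and left out each replicate. Centring within 8 print groups, read from the leading digit of each probe number, was chosen after seeing the data. Sequences of the promoters were not used here.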

Additional observations from a re-analysis of the deposited data

How the results depend on the processing

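No called member changed sign under any of the 15 alternatives. Each lay on the same side of 0 on all 3 arrays, so leaving out, weighting or rescaling arrays could not have changed its sign. RPN8 and RPN5 passed wherever they could be tested. The highest adjusted p by limma was 0.00887 for RPN8 but 0.04996 for RPN5, which lies just under the threshold. Of 28 uncalled members, 11 changed sign under some alternative, and 1 (RPN3) passed under some. With the array as a random block over all scans, the counts were again 7 lower and 2 higher, but SCL1 dropped out (adjusted p = 0.0768) and RPN3 came in (0.0424). The high-power scan alone for replicate 2, the correction for gene length and centring within print groups each left 1 member higher instead of 2, losing RPN10 (adjusted p = 0.0529), UMP1 (0.0540) and RPN10 (0.0619). A minimum fold change of 1.2, a stricter test by construction, left 2 members lower and 0 higher, and 176 genes higher and 113 lower among all genes, where 556 and 578 had been called. With the low-power scan alone for replicate 2, 349 genes were lower and 442 higher among 2686 tested. Of the 33 members tested there, 7 were lower and 2 higher. Without 1 replicate, 276 to 573 of all genes were higher and 218 to 638 lower, and 0 to 1 members were higher and 3 to 7 lower. Leaving out replicate 1 made limma's prior degrees of freedom infinite, which gives every gene the same variance. With 3 arrays, the median width of a member's 95% interval was 0.75 on the log2 scale, and the smallest mean of any called gene was 0.46 in size. Medians that changed sign under some alternative were those of the alpha ring, the assembly factors and the other lists, except the deubiquitinases. The deposited ratios carry no intensities, so signal over background could not be given. Each member has 1 probe, so probes of a member could not be compared. No paired analysis was possible because the design has a single group of arrays.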

Other observations

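The nearest protein-coding neighbours of the proteasome genes were also examined where they had been tested. RPN5, which fell, lies between NOP14 and LDB17, which had means of -0.78 (adjusted p by limma = 0.0453) and -0.97 (0.00449). RPN8 lies between GPN2, which fell (mean -0.78, adjusted p by limma = 0.0218), and GCD1, which had a mean of -0.08, and the ATPase gene RPT4 on the far side of GCD1 had -0.14. RPN11 adjoins SAD1, which fell (-0.68, adjusted p by limma = 0.0191), and YPI1, which did not pass (-0.43, 0.0924). PRE9 adjoins CAF130, which fell (-0.51, adjusted p by limma = 0.0359), and LSB1, which did not pass (-0.20, 0.340). The tested neighbours of the other falling members did not pass. They had means of -0.13 (SNX41) and -0.08 (BNA7) beside RPN9, -0.14 (ALG13) beside RPT6 and 0.21 (MPO1) beside SCL1. UMP1, which rose, adjoins SMY2, which fell (-0.51, adjusted p by limma = 0.0411), and SWD3, which did not pass (0.27, 0.222). PRE4 and RPN12, separated by the single gene RET2, had means of -0.01 and -0.03 (RPN12 on 2 arrays), whereas RET2, which encodes a coat protein of transport vesicles, rose (0.73, adjusted p by limma = 0.0145). Over all 63 adjacent genes tested, 13 were lower and 4 higher, with a median of -0.14 beside -0.04 for all genes, of which 12.0% were lower and 11.5% higher. These genes were named after their values were seen.

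Members differ in length, from 270 bases for SEM1 to 6432 for BLM10, and the median was 764.5 bases for the core and 1297.5 for the tested 19S genes. Over the 37 tested members, Spearman's rho between length and mean log2 ratio was -0.22, beside -0.16 over all genes, as a description across genes on the same arrays. Within the 14 core genes it was -0.12 and within the 18 tested 19S genes -0.08. After correction for length the lid median was -0.51, the base median -0.12 and the core median -0.04.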
